A study of Arabidopsis thaliana with 30 samples.

Results

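The comparison described here is between Arabidopsis thaliana seedlings that carry mutations in both H2A.X and H2A.W (labelled h2a.x/w-2, XW) and seedlings with the H2A.W mutation alone (labelled h2a.w-2, W), both under mock treatment. The members were chosen by genotype and treatment labels and are 3 XW and 3 W libraries, 6 of the 30 RNA-seq libraries of the series. Every group was 7 days old, in the Columbia background, and grown under 16 h of light per day. Against these are set the same genotypes treated with the DNA-alkylating agent methyl methanesulfonate (MMS), whose dose and duration the labels do not give, and mock libraries of the single H2A.X mutant (h2a.x-1, X) and of wild type (Col), with 3 libraries in each group. The main fit used all 30 libraries in 10 groups. These also include a mutant labelled tsk in mock and MMS, and X and Col under MMS. The labels name no kind of mutation, line or clone for any allele, and do not say whether replicates were separate cultures, so that p-values may measure technical spread only. The tissue label reads leaves whereas the protocol speaks of seedlings, and all 14 root markers and all 23 leaf photosynthesis markers were detected.

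H2A.X and H2A.W are variants of the core histone H2A. H2A.X is phosphorylated by the kinases ATM and ATR in chromatin around DNA breaks, and H2A.W is the variant of plant heterochromatin. TONSOKU (TSK), with which the series title is concerned, is a protein of the repair of broken replication forks. In plants the transcription factor SOG1 takes the place of animal p53 and switches on repair and cell cycle arrest genes after DNA damage.

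Values below are normalized counts, in which the reads of each gene were divided by the size factor of their library. Fold changes are log2(normalized count + 1) of XW minus W with their standard error (SE), and p-values come from limma fitted on all 20256 tested genes and all 30 libraries, with Benjamini-Hochberg adjustment over all genes. A gene with an adjusted p under 0.05 is called. The 6 libraries held 15525950 to 20132497 reads over the listed genes. The reads of XW replicate 1 were unlike those of the other XW libraries, with a chi-square over genes, per degree of freedom, of 17.1 to replicate 2 and 18.5 to replicate 3, whereas XW replicates 2 and 3 gave 2.47 and pairs of W replicates 3.56 to 7.38. The main results are therefore given also without it.

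Of the tested genes 4445 (21.9%) were called, 2380 (11.7%) as higher and 2065 (10.2%) as lower in XW than in W. A fit on the 6 libraries alone called 1138 as higher and 729 as lower. Without XW replicate 1 the main fit called 1899 (9.38%) and 1534 (7.57%). With and without that library 1640 genes were called higher and 1286 lower, and 0 genes were called in opposite directions. Most changes were small: 1643 of the rises and 1806 of the falls were under 1.5-fold. At least 2-fold changes were unequal in number, with 307 rises and 34 falls, and 269 and 19 of these held that size and their call without XW replicate 1. The median over all tested genes was -0.00565.

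The genotype labels name histone and TSK genes, whose transcripts come first. HTA3 (AT1G54690, chromosome 1, 20414316 to 20415287, minus strand in TAIR10.1), an H2A.X gene, stood at 649, 543 and 559 in the XW libraries, against 1171, 1221 and 1174 in the W libraries. All XW libraries lay below all W libraries (log2 fold change -1.03, SE 0.080, adjusted p = 3.4e-10). The XW level was near that of Col, at 594 ± 38.2, and of X, at 514 ± 25.5 (SD, n = 3), and the W level was above all of these. Exons of the gene on the opposite strand, AT1G54680, cover 62.3% of the HTA3 exons, and whether reads were counted by strand is not given in the sources used here. HTA5 (AT1G08880, chromosome 1, 2846894 to 2848100, minus strand), the other H2A.X gene, stood at 939.6, 936 and 873 in the XW libraries, against 1571, 1658 and 1548 in the W libraries. The groups did not overlap (log2 fold change -0.80, SE 0.082, adjusted p = 5.6e-08). HTA5 was at 191 ± 19 in X and 1039.8 ± 10.4 in Col (log2 fold change -2.44, adjusted p = 1.2e-18), so the libraries labelled XW lacked the low HTA5 transcript that those labelled X had. Transcript level therefore does not check the H2A.X part of the XW label, and every direction below is that of the libraries labelled XW.

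HTA6 (AT5G59870, chromosome 5, 24115354 to 24116220, minus strand) was the H2A.W gene called, at 1037, 947 and 1032 in the XW libraries, against 776, 839.8 and 779.8 in the W libraries (log2 fold change 0.33, SE 0.078, adjusted p = 0.0024). It was higher in every XW library than in any W library, while Col had 1144 ± 38.5. HTA7 (AT5G27670) stood at 467, 794 and 896 in the XW libraries, against 623, 642 and 635 in the W libraries and was not called (log2 fold change 0.13, adjusted p = 0.5). XW replicate 1 was below all W libraries and the other two above them, and without it HTA7 was called higher (0.41, adjusted p = 6.3e-05). HTA12 (AT5G02560) stood at 257, 172 and 171 in the XW libraries, against 193, 206 and 199 in the W libraries (log2 fold change -0.023, adjusted p = 0.93), with XW replicate 1 the highest of the 6. Exons of AT5G02570 on the opposite strand cover 34.7% of the HTA12 exons. TSK (AT3G18730) stood at 167, 182 and 203 in the XW libraries, against 191, 144 and 136 in the W libraries, and the groups overlapped (0.24, adjusted p = 0.26).

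**Figure D1:**
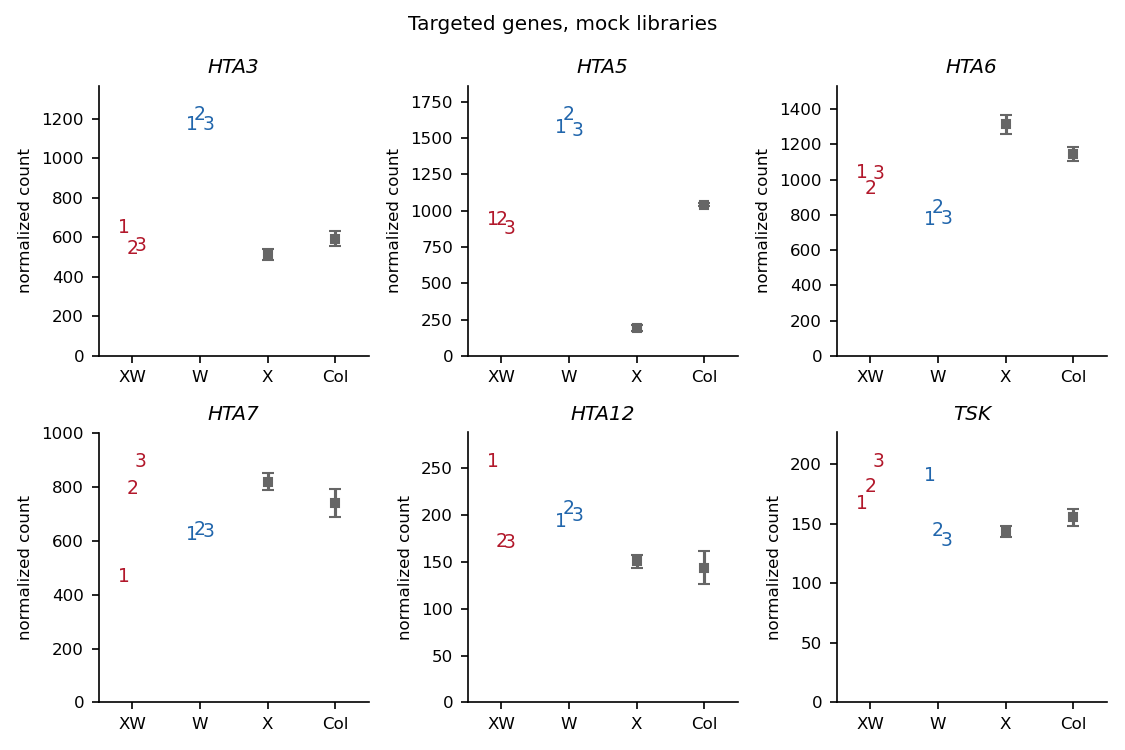
Normalized counts of the targeted genes in mock libraries. Digits are the replicates of XW and W, and squares with bars are the mean and SD of 3 X or Col libraries. XW lies below W for HTA3 and HTA5, and XW replicate 1 stands apart for HTA7 and HTA12.

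Among histone genes taken by annotated product, which include HTA5 and members of other lists, more were called higher than lower. Of 29 genes annotated as histone superfamily proteins, 12 were called higher and 3 lower, with a median of 0.13, against 11.7% higher and 10.2% lower over all genes, so the count of falls was near the general share (11 higher and 1 lower without XW replicate 1). HTB11, which encodes H2B, had 3322, 2966 and 3272 in the XW libraries, against 2101, 2065 and 2129 in the W libraries (log2 fold change 0.60, SE 0.059, adjusted p = 3e-08). HTA1, a gene of canonical H2A, had 734, 628 and 642 in the XW libraries, against 449, 482 and 413 in the W libraries (log2 fold change 0.58, SE 0.067, adjusted p = 4.2e-07). Both were separated between the groups. The 3 called lower were HTA5, HTR13 and AT3G45930, and HTR13, a gene of histone H3, had 170.0, 272 and 287 in the XW libraries, against 331, 308 and 299 in the W libraries. Its call (-0.40, adjusted p = 0.03) was lost without the low XW replicate 1 (-0.16, adjusted p = 0.36). HTR13 was also not called without W replicate 1 (-0.36, adjusted p = 0.11) or W replicate 2 (-0.41, adjusted p = 0.059). Of 7 other H2A genes 3 were called higher, which were HTA1, HTA2 (0.35) and HTA10 (0.36), and 0 lower.

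Part of the DNA damage response genes were called higher in XW than in W, and none lower. Of 28 measured genes of the SOG1 pathway and its repair factors, 11 were called higher and 0 lower, against 11.7% higher and 10.2% lower over all genes. The other 17 were not called. This list and the other lists were chosen with earlier results of these data known, so their counts are a description only. The median was 0.23, and without XW replicate 1 the counts were also 11 and 0. TSO2, a small subunit of ribonucleotide reductase that supplies nucleotides for repair, had 3606, 3573 and 4005 in the XW libraries, against 1986, 1921 and 2017 in the W libraries. All 3 XW libraries were well above W (log2 fold change 0.91, SE 0.068, adjusted p = 1.4e-10). XRI1, first found as a transcript induced by X-rays, had 577, 511 and 585 in the XW libraries, against 244, 268 and 262 in the W libraries (log2 fold change 1.11, SE 0.099, adjusted p = 6.6e-09). PARP2, a poly(ADP-ribose) polymerase that senses DNA breaks, had 417, 557 and 595 in the XW libraries, against 267, 239 and 201 in the W libraries (log2 fold change 1.14, SE 0.12, adjusted p = 5.6e-08). For both genes the groups were separated, and the lowest XW library was replicate 1 for PARP2 and replicate 2 for XRI1.

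SMR7, an inhibitor of cyclin-dependent kinases that holds damaged cells back from division, had the largest fold in the list. It stood at 77.7, 67.7 and 76.7 in the XW libraries, against 18, 27.1 and 11.8 in the W libraries (log2 fold change 1.98, SE 0.30, adjusted p = 2.1e-05). The homologous recombination gene BRCA1 (0.85, adjusted p = 6e-06) was called, as were the repair gene GMI1 (0.89), the SOG1-like factor NAC044 (0.96), the mitotic cyclin CYCB1;1 (0.49), the checkpoint gene RAD17 (0.33) and AGO2 (0.24). The upstream genes were not called: SOG1 had a log2 fold change of 0.022 (adjusted p = 0.88), ATM -0.15 (adjusted p = 0.27) and ATR -0.30 (adjusted p = 0.13).

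SOG1 binds a palindrome, CTTNNNNNNNAAG, in which N is any base. In RefSeq TAIR10.1 the 250 bases before the annotated gene start held this motif in 8 of 28 genes of the list (28.6%) and in 4 of the 11 called higher, against 1766 of all 19815 protein-coding genes tested (8.91%). The list was compiled from the known SOG1 pathway, so the share describes that choice. Promoters of 3 called genes with the motif are shown because they pair a match with a measured rise. They run 5′ to 3′ and the motif is in capitals.
SMR7, chr3:10231568-10231817, minus strand: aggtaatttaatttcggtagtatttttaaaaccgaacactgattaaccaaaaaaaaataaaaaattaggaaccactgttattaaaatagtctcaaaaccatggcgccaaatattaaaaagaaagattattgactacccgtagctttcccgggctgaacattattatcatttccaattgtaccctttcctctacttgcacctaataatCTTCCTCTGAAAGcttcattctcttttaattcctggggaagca
PARP2, chr4:1049516-1049765, plus strand: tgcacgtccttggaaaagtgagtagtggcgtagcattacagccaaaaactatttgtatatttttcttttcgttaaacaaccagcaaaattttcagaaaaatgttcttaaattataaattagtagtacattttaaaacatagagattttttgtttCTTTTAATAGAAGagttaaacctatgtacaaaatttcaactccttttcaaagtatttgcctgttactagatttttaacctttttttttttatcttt
NAC044, chr3:228825-229074, plus strand: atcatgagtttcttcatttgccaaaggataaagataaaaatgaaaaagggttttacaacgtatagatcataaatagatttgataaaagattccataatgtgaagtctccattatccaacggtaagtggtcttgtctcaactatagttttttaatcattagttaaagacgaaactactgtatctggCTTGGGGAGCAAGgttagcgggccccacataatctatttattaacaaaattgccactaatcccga
A match is a description of these letters, not a measured binding site. TSO2 and XRI1, with the smallest p-values of the list, had no match in this window.

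Damage genes were called higher in XW under MMS as well. There 15 of the 28 were called higher and 0 lower in XW than in W, with a median of 0.54, where 5.37% of all genes were called higher and 6.74% lower. SMR7 had a log2 fold change of 1.37 under MMS (adjusted p = 0.003), and TSO2 1.23 (adjusted p = 1.2e-13). The difference between the 2 treatments was called for 2 of the 28, both larger under MMS, which were TSO2 (0.31) and BARD1 (0.65), against 6.32% of all genes. Between X and Col in mock, which share no library with XW and W, 3 of 28 were called higher and 0 lower with a median of 0.11 (4.29% and 3.20% of all genes). The XW-W effect exceeded the X-Col effect for 7 of 28 by the test of that difference, among them SMR7, PARP2, TSO2, GMI1, XRI1 and BRCA1, and was smaller for SMR4 (-1.40), against 5.62% and 4.91% of all genes. SMR7, for example, was at 9.54 ± 4.92 in X and 7.61 ± 2.57 in Col.

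**Figure D2:**
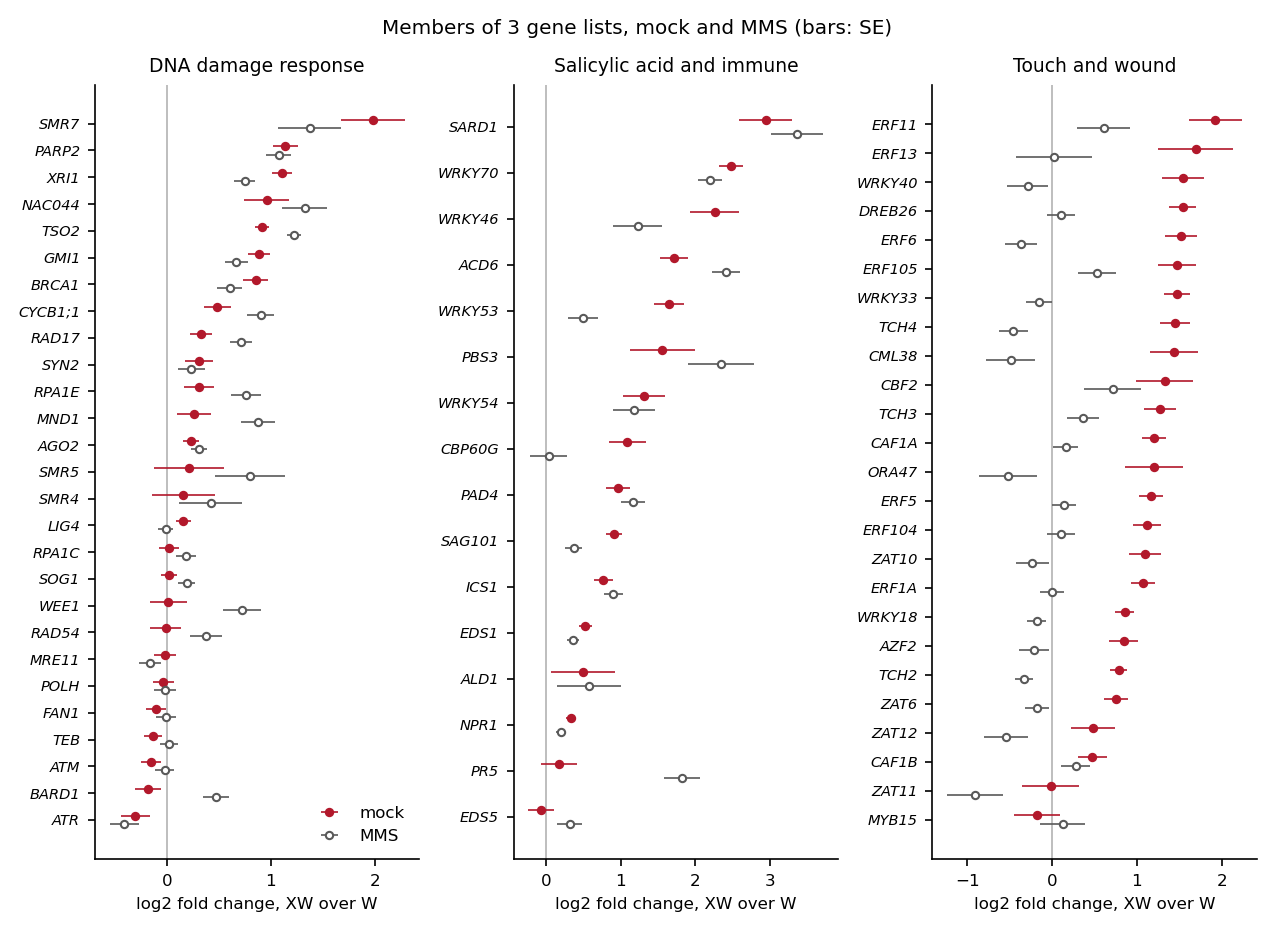
Log2 fold change of XW over W for measured members of 3 gene lists, in mock (filled) and under MMS (open), with SE. Damage and salicylic acid genes lie mostly to the right in both treatments, whereas touch and wound genes do so in mock and lie near 0 under MMS.

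Replication genes behaved differently in the 2 treatments. Of 24 S phase genes 1 was called higher and 2 lower in mock, against 11.7% and 10.2% over all genes, with a median of -0.074. The one called higher was HTR1 (0.32), a histone H3 gene, and the 2 lower were MCM5 (-0.36), part of the replicative helicase, and HTR13. Under MMS 20 of 24 were called higher in XW and 0 lower, against 5.37% and 6.74% over all genes, with a median of 0.57. The difference between treatments was called for 19 of 24, all larger under MMS, against 6.32% of all genes. MCM5 had a log2 fold change of 0.28 under MMS, and PCNA1, the sliding clamp of DNA polymerase, 0.84 against -0.23 in mock. Of 19 G2/M genes 0 were called higher and 1, CDC20.1, lower (-0.37, adjusted p = 0.035), and without XW replicate 1 its fold stayed at -0.37 with an adjusted p of 0.078. CDC20.1 was also not called without XW replicate 2, W replicate 1 or W replicate 3 (adjusted p = 0.106, 0.245 and 0.0939). Of 7 base excision repair genes XRCC1 was called higher (0.40, adjusted p = 3.7e-05) and LIG1 lower (-0.31, adjusted p = 0.00015).

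Salicylic acid and immune genes, a list also chosen with earlier results of these data known, made up the second group. Salicylic acid is the hormone of defence against biotrophic pathogens, made through ICS1 and sensed by NPR1, with EDS1 and PAD4 relaying signals from immune receptors. Of 16 measured genes 13 were called higher and 0 lower in XW than in W, with a median of 1.03 (14 and 0 without XW replicate 1). Over all genes 11.7% were called higher and 10.2% lower. WRKY70, a transcription factor downstream of salicylic acid, had 809, 678 and 824 in the XW libraries, against 119.8, 126 and 171 in the W libraries. Every XW library was above every W library by a wide margin (log2 fold change 2.48, SE 0.16, adjusted p = 1.3e-11). SARD1, which activates ICS1, had 116, 106 and 148 in the XW libraries, against 14.8, 13 and 17.6 in the W libraries (log2 fold change 2.94, SE 0.35, adjusted p = 6.1e-07). ACD6, an ankyrin repeat protein that raises salicylic acid when active, had 1349, 1334 and 1812 in the XW libraries, against 453, 419 and 486 in the W libraries (log2 fold change 1.71, SE 0.19, adjusted p = 1.5e-07).

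Smaller changes ran along the pathway. ICS1 itself had 349, 282 and 354 in the XW libraries, against 222, 181 and 174 in the W libraries (log2 fold change 0.77, SE 0.13, adjusted p = 4.8e-05), PAD4 a log2 fold change of 0.97, EDS1 0.53 and the receptor NPR1 0.33 (adjusted p = 9.4e-05). PR5, a marker of the completed response, was not called and stood at 82.3, 206 and 187 in the XW libraries, against 134, 113 and 146 in the W libraries. XW replicate 1 was below all W libraries for PR5, and without it PR5 was called (0.59, adjusted p = 0.048). ALD1 (0.50) and EDS5 (-0.062) were not called.

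Under MMS 12 of the 16 were called higher and 0 lower, against 5.37% and 6.74% over all genes, with a median of 1.04. SARD1 had a log2 fold change of 3.36 and ACD6 2.41 there. The treatments differed for 4 genes: PR5 was larger under MMS (1.65), and WRKY53 (-1.15), CBP60G (-1.06) and SAG101 (-0.54) were smaller, against 6.32% larger and 7.47% smaller over all genes. Between X and Col 2 of 16, WRKY70 (1.70) and WRKY46 (1.41), were called, with a median of 0.012 (4.29% higher and 3.20% lower over all genes). The test of the difference called the XW-W effect larger than the X-Col effect for 12 of 16 and smaller for 0. Over all genes these were 5.62% and 4.91%.

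Immune receptor and WRKY genes, taken as families by their annotated product after the values were seen, also held more rises than falls. The counts in this paragraph stand against 11.7% higher and 10.2% lower over all genes. Of 77 receptors of the TIR-NBS-LRR class, which detect pathogen effectors inside the cell, 29 were called higher and 0 lower, with a median of 0.25 (28 and 0 without XW replicate 1). AT1G63750, the member with the smallest p-value, had 282, 301 and 322 in the XW libraries, against 141, 127 and 185 in the W libraries (log2 fold change 1.01, SE 0.11, adjusted p = 2.3e-07). Of 42 other NBS-LRR genes 10 were called higher and 0 lower. RPM1, a receptor for bacterial effectors, had a log2 fold change of 0.50 and ADR1, a helper receptor, 0.52. Of 38 receptor like proteins, which sit at the cell surface, 10 were called higher and 1, RLP12 (-0.47), lower. RLP41 had 92.3, 114 and 114 in the XW libraries, against 10.6, 9.77 and 24.7 in the W libraries (log2 fold change 2.86, SE 0.41, adjusted p = 7.3e-06). Of 51 WRKY transcription factors 20 were called higher and 0 lower (17 and 0 without XW replicate 1), and 7 of the 51 also stand in the salicylic acid or touch lists. WRKY48, one that is in neither list, had 177, 127 and 187 in the XW libraries, against 66.8, 58.6 and 63.5 in the W libraries (log2 fold change 1.35, SE 0.18, adjusted p = 2e-06). Reads of tandem receptor genes with similar sequence may be shared, and how the authors counted such reads is not given in the sources used here.

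Under MMS 7 TIR-NBS-LRR genes were called higher and 2 lower in XW than in W, and 7 WRKY genes higher and 2 lower, against 5.37% higher and 6.74% lower over all genes. The difference between treatments was called for 9 of 77 and 11 of 51, all smaller under MMS. For receptor like proteins it was called for 3 of 38, of which 2 were larger. Over all genes 6.32% were called larger and 7.47% smaller.

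The largest rises included more genes of this kind. Ranked by fold among genes called with and without XW replicate 1, whose groups did not overlap and whose mean reached 50 in one of them, AT5G24240, annotated as a phosphatidylinositol 4-kinase gamma-like protein (chromosome 5, 8230916 to 8234150, minus strand), was first. It had 462, 616 and 656 in the XW libraries, against 19.1, 19.5 and 43.5 in the W libraries (log2 fold change 4.44, SE 0.28, adjusted p = 1.3e-11). X was also high, at 723 ± 9.12, and Col was at 107 ± 23.8. RLP23 (AT2G32680), the receptor for a peptide of microbial necrosis-inducing proteins, had 75.9, 51.5 and 100.2 in the XW libraries, against 2.12, 1.09 and 9.41 in the W libraries (log2 fold change 4.19, SE 0.48, adjusted p = 3e-07). W values were near the floor of the table, so the size of this fold depends on the added 1. WAK1 (AT1G21250), a kinase that binds pectin in the cell wall, had 441, 485 and 690.4 in the XW libraries, against 29.7, 47.7 and 41.2 in the W libraries (log2 fold change 3.73, SE 0.26, adjusted p = 5.3e-11). X at 56.3 ± 11.6 and Col at 41.1 ± 6.95 were near W.

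AT5G42530, an uncharacterized protein, had 745, 922 and 1243 in the XW libraries, against 47.7, 46.7 and 72.9 in the W libraries (log2 fold change 4.10, SE 0.28, adjusted p = 4.1e-11). AT5G07610, an F-box gene, had 128, 84.8 and 113 in the XW libraries, against 4.24, 3.26 and 9.41 in the W libraries (log2 fold change 4.13, SE 0.40, adjusted p = 2.8e-08). AT1G35710, a kinase with leucine-rich repeats, had a log2 fold change of 3.49, TAT3, a tyrosine aminotransferase induced by wounding and jasmonate, 3.47, and AT3G22235, annotated as a stress tolerance protein, 3.13. TAT3 had 58.5, 108 and 64.4 in the XW libraries, against 5.30, 4.34 and 8.23 in the W libraries. W values of AT5G07610 and TAT3 were also near the floor, so the size of their folds depends on the added 1. All 8 were also called higher under MMS, from 2.43 in TAT3 to 5.05 in AT5G24240.

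**Figure D3:**
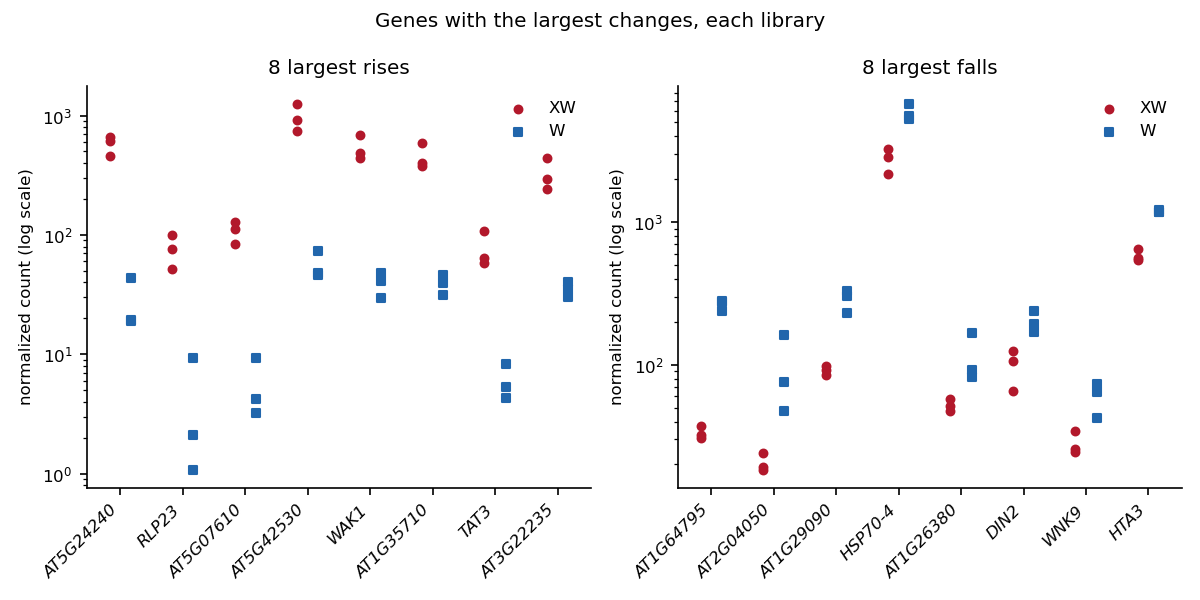
Normalized counts in each mock library, on a log scale, for the 8 largest rises and 8 largest falls. XW (circles) is left of W (squares). The groups do not overlap for any of the 16 genes because this was a condition of their choice.

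Falls were smaller. AT1G64795, an uncharacterized gene with 70.6% of its exons under exons of AT1G64790 on the opposite strand, had 37.5, 32.3 and 30.7 in the XW libraries, against 238, 276 and 281 in the W libraries (log2 fold change -2.95, SE 0.35, adjusted p = 4.7e-07). AT2G04050, a MATE efflux gene, had 19.2, 24.2 and 18.4 in the XW libraries, against 75.3, 47.7 and 162 in the W libraries (log2 fold change -1.98, SE 0.38, adjusted p = 0.00037), and the W libraries ranged widely. AT1G29090, a cysteine proteinase gene, had 92.3, 98 and 84.9 in the XW libraries, against 331, 302 and 231 in the W libraries (log2 fold change -1.62, SE 0.24, adjusted p = 1e-05). DIN2, a sugar-starvation-induced glycosyl hydrolase, had a log2 fold change of -1.04. Both were far lower in X than in Col as well (-3.17 for AT1G29090 and -2.62 for DIN2), and Col was the highest of these 4 genotypes, at 700.2 ± 116 and 558 ± 128. AT1G26380 (-1.05), WNK9 (-1.04), HSP70-4 and HTA3 completed the 8, and AT1G26380 was not called without W replicate 2 (-0.74, adjusted p = 0.11).

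Touch and wound genes, a list also chosen with earlier results of these data known, made up the third group. These are transcription factors, calcium sensors and wall enzymes that plants induce within minutes of touch, wounding or cold. Of 25 measured genes 22 were called higher in XW and 0 lower, with a median of 1.20 (23 and 0 without XW replicate 1). Over all genes 11.7% were called higher and 10.2% lower. WRKY33 had 2009.9, 1745 and 2331 in the XW libraries, against 565, 813 and 839 in the W libraries (log2 fold change 1.47, SE 0.15, adjusted p = 7e-08). TCH4, a xyloglucan endotransglucosylase found by its response to touch, had 3439, 3511 and 3973 in the XW libraries, against 1002, 1554 and 1510.2 in the W libraries (log2 fold change 1.45, SE 0.17, adjusted p = 6.1e-07). DREB26, an ERF family factor, had 545, 476 and 533 in the XW libraries, against 119.8, 225 and 207 in the W libraries (log2 fold change 1.54, SE 0.16, adjusted p = 8.6e-08). In each of these W replicate 1 was the lowest library, and XW stayed above all W libraries. ERF105, with 1.47, is covered in full by exons of AT5G51180, which is on the opposite strand.

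Under MMS 0 of 25 touch and wound genes were called higher and 1, TCH2 (-0.33), lower, with a median of -0.15 (5.37% higher and 6.74% lower over all genes). The difference between treatments was called for 19 of 25, all smaller under MMS, against 7.47% of all genes. WRKY33 was at 2028 ± 274 in XW and 2262 ± 420.0 in W under MMS. Between X and Col in mock 21 of 25 were called higher and 0 lower, with a median of 1.23 (4.29% and 3.20% over all genes). The XW-W effect was larger for 3 and smaller for 5 of 25 than the X-Col effect, against 5.62% and 4.91% of all genes. WRKY33 averaged 2029 in XW, 834 in X, 739 in W and 417 in Col. The order of harvest is not in the labels, and its part in these genes was not tested.

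WRKY factors bind the W-box, of which TTGAC on either strand is the core. The 250 bases before the start held it in 15 of 25 touch genes and 8 of 16 salicylic acid genes, against 8956 of 19815 genes (45.2%) and 814 of the 1620 protein-coding genes called higher with and without XW replicate 1 (50.2%). A CGCG core, bound by calmodulin-dependent CAMTA factors, was in 3 of 25 touch genes, against 10.8% of all. SARD1 and WRKY33 are shown as 1 strongly changed gene from each list, with W-box letters in capitals on either strand, and adjacent matches run together in SARD1.
SARD1, chr1:27749249-27749498, minus strand: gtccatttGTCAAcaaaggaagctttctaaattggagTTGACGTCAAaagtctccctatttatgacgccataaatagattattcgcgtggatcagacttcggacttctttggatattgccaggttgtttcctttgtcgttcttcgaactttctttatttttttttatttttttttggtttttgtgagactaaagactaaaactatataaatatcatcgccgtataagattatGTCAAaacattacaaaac
WRKY33, chr2:16107985-16108234, plus strand: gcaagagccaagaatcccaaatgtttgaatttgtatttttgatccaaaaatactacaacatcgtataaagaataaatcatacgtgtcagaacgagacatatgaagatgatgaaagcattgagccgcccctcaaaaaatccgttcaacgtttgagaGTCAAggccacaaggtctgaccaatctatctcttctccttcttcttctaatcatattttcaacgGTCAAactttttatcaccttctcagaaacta
SARD1 held 4 matches and WRKY33 2, and a match says nothing of binding in these seedlings.

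Ribosomal protein genes, a family also taken after the values were seen, held many small falls in XW. Of 306 genes 159 were called lower and 7 higher, with a median of -0.23 (149 and 2 without XW replicate 1), against 10.2% lower over all genes. They held 3.37%, 3.42% and 3.42% of reads in the XW libraries, against 3.75%, 4.13% and 3.80% in the W libraries. The shares did not overlap between the groups. An exact permutation test of them gave p = 0.1, the lowest it can reach with 3 libraries per group. The family was taken for its low values, so the shares are a description only. X had 3.59% to 3.76% and Col 3.66% to 3.72%, so that XW was the lowest of the 4 genotypes in mock. RPS6, of the small cytosolic subunit, had 4842, 5394 and 5328 in the XW libraries, against 6690.1, 7066 and 6795 in the W libraries (log2 fold change -0.40, SE 0.048, adjusted p = 5.9e-07). RPL9 (AT3G44890) had 1608, 1617 and 1421 in the XW libraries, against 3108, 3069 and 2962 in the W libraries (log2 fold change -0.98, SE 0.062, adjusted p = 1.3e-11), while the median of the family was far smaller. Many ribosomal protein transcripts are short, and over all 2823 genes with a longest transcript of up to 1000 nt the median was 0.015 and 8.01% were called lower. Any part of transcript length in the ribosomal falls was not tested.

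Under MMS 6 ribosomal genes were called higher and 2 lower, with a median of 0.055 (5.37% higher and 6.74% lower over all genes). The difference between treatments was called for 122 as higher and 4 as lower under MMS, against 6.32% and 7.47% of all genes. Between X and Col 0 of 306 were called in either direction by limma, against 7.48% of all genes. The XW-W effect was lower than the X-Col effect for 84 and higher for 2, against 4.91% and 5.62% of all genes.

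**Figure D4:**
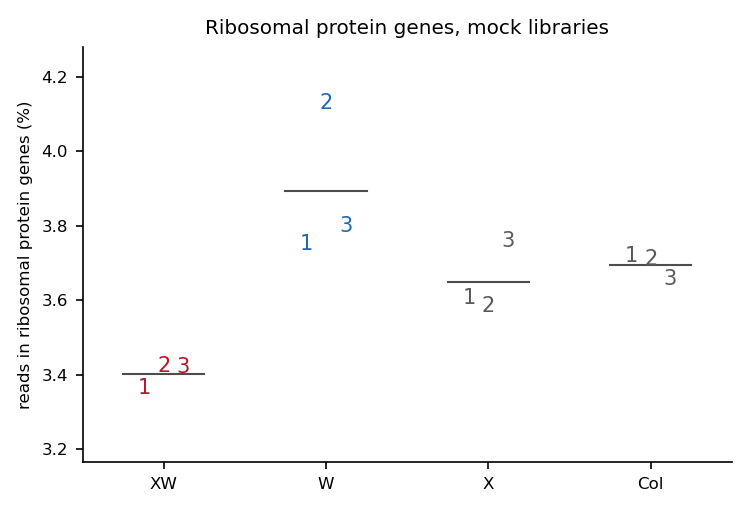
Share of each mock library's reads that fell in 306 ribosomal protein genes. Digits are replicates, lines are means, and the axis starts above 0. The 3 XW libraries lie below all others.

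Flavonoid and heat shock genes included called falls. Of 9 flavonoid genes 2 were called lower and 0 higher, with a median of -0.40, against 10.2% lower and 11.7% higher over all genes. FLS1, flavonol synthase, had 1236, 1573 and 1450.4 in the XW libraries, against 2644, 1806 and 1985 in the W libraries (log2 fold change -0.58, SE 0.15, adjusted p = 0.0056), and TT5, chalcone isomerase, a log2 fold change of -0.44. Without W replicate 1 neither was called (-0.42, adjusted p = 0.068 for FLS1 and -0.31, adjusted p = 0.099 for TT5), and TT5 was not called without XW replicate 3 (-0.36, adjusted p = 0.057). Between X and Col 5 of 9 were called higher, with a median of 0.54, against 4.29% of all genes. The XW-W effect was the lower for 5 of 9 by the test of the difference, against 4.91% of all genes. Of 16 heat shock genes 5 were called lower and 1 higher (2 and 1 without XW replicate 1, when 7.57% of all genes were called lower and 9.38% higher). With edgeR's quasi-likelihood test 2 of the 16 were called lower. HSP70-4, a cytosolic chaperone, had 2169, 3269 and 2846 in the XW libraries, against 6688, 5519.7 and 5282 in the W libraries (log2 fold change -1.09, SE 0.14, adjusted p = 1.5e-06), and XW replicate 1 was the lowest. HSFA2, a heat shock factor, had 25.6, 71.7 and 45 in the XW libraries, against 88, 116 and 80.0 in the W libraries, and its call (adjusted p = 0.0069) was lost without XW replicate 1 (-1.08 with it and -0.71 without, adjusted p = 0.092). HSFB2A was the gene called higher (0.69).

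**Figure D5:**
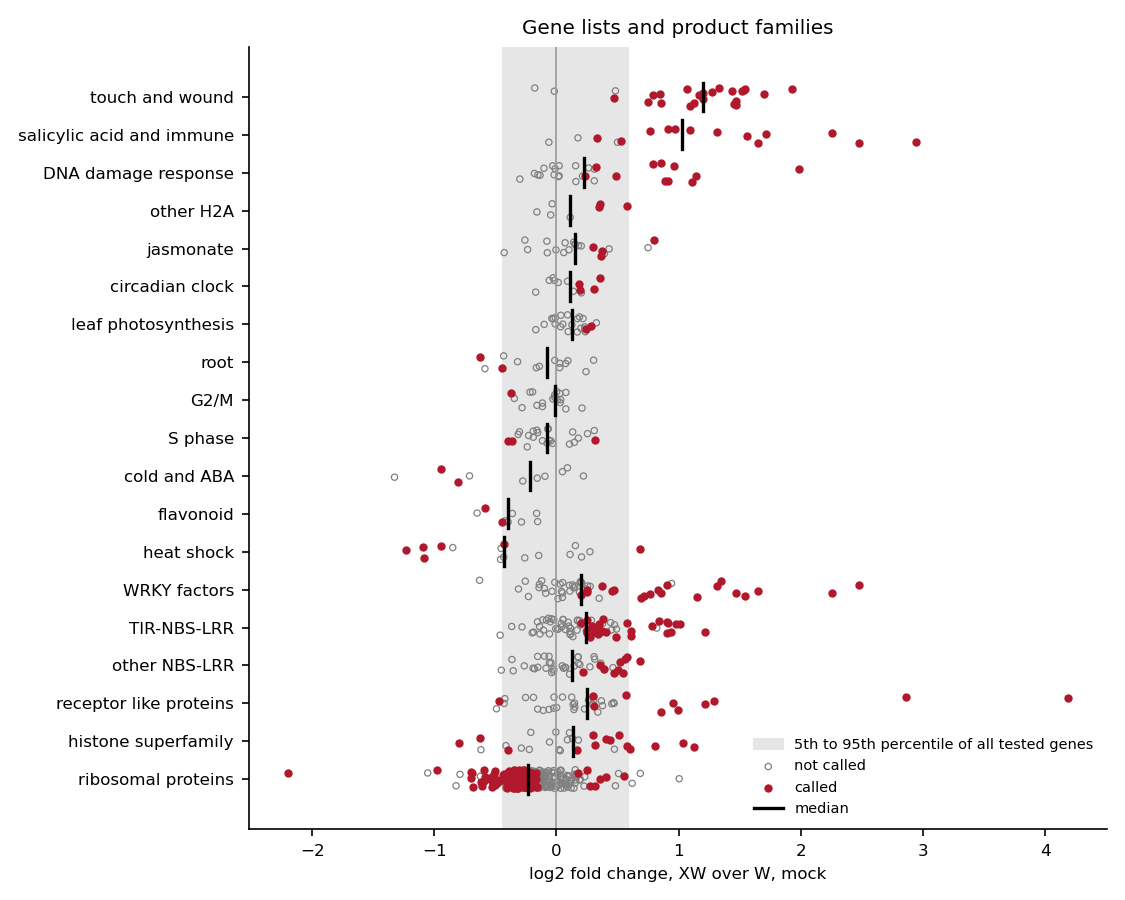
Log2 fold change of XW over W in mock for the members of 13 lists and 6 families. Filled points were called, black lines are medians, and the grey band holds the 5th to 95th percentile of all tested genes (-0.44 to 0.58). Touch and salicylic acid genes have medians outside the band, and ribosomal genes lie slightly left of 0.

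The other lists are read against the same 11.7% higher and 10.2% lower over all genes. Of 21 jasmonate genes 4 were called higher and 0 lower, among them JAZ6 (0.37) and LOX4 (0.80), with 1 left without XW replicate 1. Of 19 oxidative stress genes 2 were higher, OM66 (1.62, adjusted p = 1.7e-05), a mitochondrial outer membrane protein, and CYP81D8 (0.81). Of 10 flowering genes 3 were higher, led by MAF5, a MADS-box repressor of flowering, with 32.9, 34.3 and 40.9 in the XW libraries, against 7.42, 6.51 and 9.41 in the W libraries (log2 fold change 2.08, SE 0.20, adjusted p = 3e-08), and followed by SOC1 (0.39) and SVP (0.19). MAF5 was also higher in X than in Col (2.44). Of 21 DNA methylation genes CMT2 (-0.30) and AGO4 (-0.21) were lower and VIM5 (1.16) higher, and CMT2 kept its call without XW replicate 1. Of 12 clock genes 4 were higher and 0 lower, with 1, PRR7 (0.36), left without that library. Of 10 expansin genes EXPA2 (-1.65) and EXPA10 (-0.42) were lower, and of 10 cold and abscisic acid genes COR15B (-0.80) and KIN2 (-0.94) were.

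Several of these calls were lost when 1 library was left out, some with little change in fold. Without XW replicate 1 the log2 fold change was -0.42 for EXPA10 (adjusted p = 0.096), 0.76 for LOX4 (adjusted p = 0.054) and 0.17 for SVP (adjusted p = 0.12), close to the values over all libraries. It was -0.14 for AGO4 (adjusted p = 0.18), 0.92 for VIM5 (adjusted p = 0.14) and -0.54 for KIN2 (adjusted p = 0.26), all nearer to 0. Without W replicate 1 it was 0.56 for CYP81D8 (adjusted p = 0.11), -0.71 for COR15B (adjusted p = 0.092) and 1.52 for the seed gene CRA1 (adjusted p = 0.093). Without W replicate 2 it was -1.55 for EXPA2 (adjusted p = 0.054) and 0.51 for the meristem gene STM (adjusted p = 0.084). Most of these genes lost their call in further such fits. EXPA10 was called in none of the 6. LOX4 was also not called without W replicate 1 or 2, and SVP without XW replicate 2, W replicate 2 or W replicate 3. AGO4 and VIM5 were also lost without W replicate 1 or 3, KIN2 without W replicate 1, and EXPA2 without XW replicate 2. COR15B was also lost without XW replicate 3 or W replicate 3, and CRA1 without XW replicate 3 or W replicate 2. Named members of the damage, salicylic acid and touch lists with the smallest p-values, TSO2, XRI1, PARP2, WRKY70, ACD6, WRKY53, WRKY33, DREB26 and TCH4, kept their calls without any 1 of the 6 libraries.

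Summed levels of the tissue markers did not overlap between XW and W. Leaf, shoot meristem and seed sums were higher and root sums lower in every XW library. The differences were small except for seed genes. Over all genes 11.7% were called higher and 10.2% lower. Leaf photosynthesis markers had 2 of 23 called higher, PSBP1 (0.24) and PSAF (0.28), neither called without XW replicate 1 (0.17 and 0.12), and a summed level of 1375000 to 1441700 in XW against 1257000 to 1366300 in W. Root markers had 2 of 14 called lower, CASP4 (-0.62) and ESB1 (-0.44), neither called without it, and sums of 3407 to 3575 in XW against 3709 to 3909 in W. Without XW replicate 1 CASP4 kept its fold (-0.63, adjusted p = 0.082), whereas ESB1 had -0.094 (adjusted p = 0.61). CASP4 was also not called without XW replicate 3, W replicate 1 or W replicate 3, nor ESB1 without W replicate 1 or 3. PSBP1 was also not called without W replicate 2, nor PSAF without W replicate 1 or 2. Exons of AT2G28671 on the opposite strand cover 84.3% of the ESB1 exons. Of 8 shoot meristem genes STM was called higher (0.77), and the sums were 1687 to 1857 in XW against 1462 to 1640 in W. Seed storage and oil body genes, of which 5 of 16 were measured, had 3 called higher and ABI3 lower (-0.74), and summed to 829 to 1296 in XW against 283 to 755 in W. CRA1, a seed storage protein, had 854, 646 and 1108 in the XW libraries, against 171, 141 and 613 in the W libraries (log2 fold change 1.79, SE 0.55, adjusted p = 0.019), and PAP85 (1.89) and OLEO4 (1.39) were the other two. CRA1 thus made up most of the seed sum in every XW library and in W replicates 1 and 3. Its call was lost without XW replicate 3, W replicate 1 or W replicate 2. PAP85 and OLEO4 kept their calls when any 1 library was left out. The part of these markers in the gene groups above was not tested. In whole seedlings fewer cells of a type and less RNA per cell cannot be told apart.

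XW replicate 1 differed from its group in particular genes. Among the 6 named for this, AT3G23450, an uncharacterized gene, had 281, 992 and 1075 in the XW libraries, against 1209, 1390.0 and 1485 in the W libraries and was called lower (adjusted p = 0.0089) only with that library (-0.39, adjusted p = 0.12 without it). AT2G05510, a glycine-rich protein gene, had 10.1, 87.9 and 76.7 in the XW libraries, against 93.3, 92.2 and 50.6 in the W libraries, and AT1G58848, of the CC-NBS-LRR class, had 29.2, 209 and 71.6 in the XW libraries, against 45.6, 76 and 48.2 in the W libraries. COR15A, a cold-regulated gene, had 439.6, 273 and 168 in the XW libraries, against 314, 156 and 259 in the W libraries, with XW replicate 1 the highest. AT5G66985 had 88.7, 39.4 and 28.6 in the XW libraries, against 48.8, 44.5 and 41.2 in the W libraries, and AT2G47200 had 96, 58.6 and 33.8 in the XW libraries, against 76.3, 71.6 and 47 in the W libraries. Opposite-strand exons cover 81% of the AT2G47200 exons. None of these last 5 was called over all libraries (adjusted p from 0.15 to 0.94), and AT2G05510 was called lower without XW replicate 2 (adjusted p = 0.016) or replicate 3 (adjusted p = 0.033).

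Across all genes the 2 treatments shared part of the rises and less of the falls. Of the 1640 genes called higher with and without XW replicate 1 in mock, 372 (22.7%) were called higher and 129 lower in XW than in W under MMS. Of the 1286 called lower 130 (10.1%) were called lower and 32 higher. Under MMS 5.37% of all genes were called higher and 6.74% lower. The sign under MMS was the same as in mock for 939 of the 1640 and for 577 of the 1286. Pearson's r of the log2 fold changes across the 20256 genes was 0.407 between mock and MMS, and 0.243 between XW-W and X-Col in mock, where genes are not independent replicates. Running medians of 41 neighbouring genes along the chromosomes stayed between -0.19 and 0.23, both on chromosome 3.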

How the data were processed

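STAR, DESeq2 1.30.1 and the TAIR10 build are named in the submitters' processing notes as what the authors used. Reads were paired, 150 nt long per the labels. In the deposited table used here each value is a normalized signal, reads per gene divided by a library size factor by the authors, and 100% of values were whole multiples of the smallest step of their library (tolerance 0.01 of a read), which gave back whole reads. A further deposited table holds FPKM and served as an alternative. Files of single libraries repeated the first table's values, so a planned look at further genes had nothing to use. Strand and the counting of shared reads are not given in the sources used here. Libraries held 15343687 to 25115027 reads, and precision is limited by 3 libraries per group. The plan had named this test for normalized values.

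A gene was tested when 3 or more libraries reached a normalized count of 10, which held for 20256 of 20404 and removed 148. limma 3.58.1 (R 4.3.3, empirical Bayes with trend) was fitted on log2(normalized count + 1) with a coefficient for each of 10 groups and 20 residual degrees of freedom. Alternatives were edgeR 4.0.16 (TMM and DESeq2-style factors) and DESeq2 1.42.0 on whole reads, FPKM with 0.1 added, other pseudocounts, no filter, the 6 libraries alone, library weights, a replicate block and leaving out each library. On simulated data for XW mock against W mock with 20256 genes, 51 of 67 genes changed 1.5-fold (76.1%), 52 of 67 changed 2-fold (77.6%) and 64 of 66 changed 4-fold (97.0%) were called, with 7 false calls among 174. The simulation gave each gene the same spread in every library, so no library lay apart as XW replicate 1 does. It also changed far fewer genes than were called in the data, so these shares need not hold there.

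The comparison, the 21 lists (345 genes) and the rule for named genes were chosen with earlier results of these data known. Named genes are the targeted genes, the 8 rises and 8 falls of largest fold (called with and without XW replicate 1, groups not overlapping, mean of 50 or more), the called members of each list that came first by adjusted p (3 at most), and 3 genes each way in which XW replicate 1 lay farthest from its group. A member of the DNA damage list enters its counts but is not reported here by name. Further list members, the product families and their members were named after their values were seen. Symbols, positions and promoters come from RefSeq TAIR10.1, in which all loci matched, and promoter letters were searched on both strands.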

Additional observations from a re-analysis of the deposited data

Results flagged for a closer look

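Among 24 named genes, 26 effects differed from the same contrast in other samples by limma's test of the difference (adjusted p under 0.05), in log2 units. The XW-W effect under MMS minus that in mock was 0.94 for HTA3, 0.59 for HTA5 and 1.07 for HTA6: HTA3 had -0.092 under MMS and -1.03 in mock, HTA5 -0.20 and -0.80, and HTA6 1.41 and 0.33. The same difference was 1.11 for WAK1, 2.02 for AT2G04050, 0.68 for HSP70-4, 1.85 for AT1G26380 and 0.31 for TSO2, and -1.62 for WRKY33.

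The XW-W effect minus the X-Col effect, both in mock, was -0.82 for HTA3 and 1.64 for HTA5, since HTA5 was low in X and not in the libraries labelled XW. Among the largest rises it was 1.66 for AT5G24240, 3.68 for RLP23, 2.51 for AT5G07610, 2.84 for AT5G42530, 3.30 for WAK1, 3.48 for AT1G35710, 2.81 for TAT3 and 2.34 for AT3G22235. Among the falls it was -2.90 for AT2G04050, 1.54 for AT1G29090, -1.15 for HSP70-4, 1.58 for DIN2 and -0.94 for WNK9. For AT1G29090 and DIN2 the positive value means that X lay farther below Col than XW below W. TSO2 had 0.74 and WRKY70 0.78.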

How the results depend on the processing

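Without single libraries 1756 to 2334 genes were called higher and 1460 to 2194 lower, the lowest without W replicate 1. The 6 libraries alone gave 1138 and 729. That fit has fewer residual degrees of freedom and takes the spread from XW and W mock only, and the part of each was not tested. Deviations of same-numbered XW and W libraries from their group means had r of 0.026, 0.026 and 0.037. For unlike numbers r ran from -0.0654 to 0.0335. With 3 libraries per group such values cannot decide whether the numbers pair them. A fit with the replicate block called 2341 higher and 2024 lower. edgeR called 2585 and 1965, DESeq2 2326 and 2016. XW-W was called lower than X-Col for 654 (without W replicate 1) to 1245 genes (without XW replicate 2), against 994. Of 75 named genes 40 kept direction and call in all 16 alternatives. No gene called over all libraries changed sign in any of them, whereas 7 genes that were not called did, by leaving out a library or by tool. Over the fits without 1 library their log2 fold changes ran from -0.057 to 0.41 for HTA7, -0.22 to 0.076 for HTA12, -1.39 to 0.11 for AT2G05510, -0.26 to 1.14 for AT1G58848, -0.40 to 0.40 for AT5G66985, -0.51 to 0.23 for AT2G47200 and -0.12 to 0.57 for COR15A. HTA12 was also 0.020 and 0.0092 with edgeR (TMM and DESeq2-style factors) and 0.0081 with DESeq2, and with library weights AT2G05510 was at 0.16, AT5G66985 at -0.24 and COR15A at -0.045.

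Without XW replicate 1 the counts per list that moved by over 1.5 times were 2 higher for targeted genes, 1 for jasmonate, 0 for leaf, 1 for expansin, 0 for DNA methylation, 1 for clock and 2 for ribosomal genes, and 1 lower for S phase, 0 for G2/M, 2 for heat shock, 1 for oxidative, 1 for leaf, 0 for root, 0 for seed, 1 for cold, 1 for expansin, 1 for DNA methylation and 1 for histone genes. With edgeR, run after the data were seen, 2 G2/M, 2 heat shock, 4 flavonoid, 1 root and 4 cold genes were lower and 6 leaf and 1 expansin genes higher. With FPKM 1 oxidative, 1 root and 1 wall-associated kinase gene were lower. The cause was not tested.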
